A study of Mus musculus with 11 samples.

Results

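The 42 genes described here encode clotting factors, fibrinogen, the contact system, anticoagulants, fibrinolysis proteins and complement proteins that the liver secretes into plasma. They were taken by symbol from a fixed list and each matched 1 of the 31053 genes in the files. They were followed in mouse liver after an overdose of acetaminophen (APAP), a drug whose toxic metabolite kills hepatocytes around the central vein. The Visium assay counted RNA molecules (UMIs, unique molecular identifiers) in barcoded spots under a frozen tissue section. Each of the 11 sections was 1 library, with 3 uninjured sections at 0 h (replicates 2, 3 and 4), 2 taken 24 h after APAP (A, B), 2 taken after 36 h (A, B) and 4 taken after 48 h (A, B, C, D). In the study's methods the animals were adult male C57BL/6JCrl mice given a single intraperitoneal dose of APAP after a fast, with 1 mouse per time point for this assay, and the labels do not tie sections to mice or slides. Values of p therefore cover only the spread between sections, and mouse and time cannot be told apart. Per-section values are given in the order of these replicates.

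Plasma clotting and complement are cascades of serine protease zymogens that activate one another. The clotting arm ends in thrombin, which turns fibrinogen into fibrin, while the complement arms converge on C3 and end in the membrane attack complex built from C5 to C9. Hepatocytes make most of these proteins, and fibrinogen, C3 and several inhibitors are acute-phase proteins whose mRNA responds to inflammatory cytokines such as IL-6.

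After filtering, sections held 1490 to 3466 spots and 31292663 to 67045372 UMIs. The 42 genes together gave 1129752 to 2475080 UMIs per section. The summed level of 5 hepatocyte markers (Alb, Ttr, Trf, Hnf4a, Apoa1) ran from 114265 to 119440.0 CPM at 0 h and from 77232 to 102894 CPM after injury. The 5 did not move alike: Ttr fell at all 3 times (by up to 1.15 on the log2 scale), Alb and Apoa1 fell at 24 and 48 h, Hnf4a had no call, and Trf rose at 24 h (0.55, adjusted p = 0.014) and 48 h (0.40, adjusted p = 0.0276). Values scaled to these markers use their sum, which is mostly Alb. CPM is the UMI count per 1000000 UMIs after TMM scaling, which sets the bulk of genes level between sections. The sum of 4 myofibroblast markers was 37.5 to 45.9 CPM at 0 h and 483 to 1185 CPM at 48 h. That of 4 neutrophil markers was 1.98 to 7.86 CPM at 0 h and 38.4 to 136 CPM at 24 h. The part of these shifts in cell makeup in the results below was not tested. In a spot that mixes several cells, fewer hepatocytes and less RNA per hepatocyte cannot be told apart. Among the 0 h sections, replicate 4 held the highest level of 32 of the 42 genes, and 36 h A exceeded 36 h B in 28.

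As a share of all UMIs, the 42 genes made up 2.91, 3.10 and 3.37% in the 0 h sections, 5.38 and 6.14% at 24 h, 3.61 and 3.41% at 36 h and 3.35, 3.76, 3.99 and 3.58% at 48 h. Alone, the 3 fibrinogen chains gave 36.3 to 39.4% of the members' UMIs at 0 h, 56.2 and 59.3% at 24 h, 30.1 and 31.2% at 36 h and 35.1 to 41.2% at 48 h. This share does not depend on the scaling. The 24 h sections lay above every other section while the 36 h sections lay below every other.

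Against 0 h, 7 of the 42 genes were higher and 18 lower at 24 h, beside 23.1% and 18.6% of all 14821 genes tested (edgeR's quasi-likelihood test, Benjamini-Hochberg adjusted p under 0.05 over all genes). At 36 h 2 were higher and 15 lower, beside 16.8% and 12.4% of all genes. At 48 h 1 was higher and 26 lower, beside 23.3% and 20.9%. The median log2 fold change of the members was -0.32, -0.28 and -0.44 at 24, 36 and 48 h, beside 0.047, 0.048 and 0.011 over all genes. All 3 comparisons share the 0 h sections. These splits depended on the scaling. With levels taken as a plain share of all UMIs, the median of all genes moved to 0.37, 0.49 and 0.54. The members called were then 13 higher and 6 lower at 24 h, 13 and 2 at 36 h, and 13 and 7 at 48 h, beside 41.1% and 10%, 47.7% and 2.98%, and 60.2% and 4.04% of all genes. Scaled to the 5 hepatocyte markers they were 13 and 4, 6 and 2, and 6 and 7, beside 43.9% and 6.56%, 30.4% and 2.61%, and 45.8% and 4.06% of all genes. Directions below are thus relative to the bulk of genes. The calls that held under all 3 scalings numbered 11 of 25 at 24 h, 4 of 17 at 36 h and 8 of 27 at 48 h.

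At 24 h those 11 were F11, Fga, Fgb, Fgg, Serpinf2, Kng2 and C3 (higher) and F13b, Serpind1, Klkb1 and C8g (lower). At 36 h they were Kng2 and C3 (higher) and C8g and Mbl1 (lower). At 48 h they were Pros1 (higher) and Serpinc1, Klkb1, C8b, C8g, Mbl1, Mbl2 and C1ra (lower). Lower levels that turned to higher as a share of all UMIs were those of F5 at 24 h, F2, F10 and Plg at 36 h and F7, Fga, Fgg, Plg, Cpb2, C8a, C1s1 and C4bp at 48 h.

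**Figure D1:**
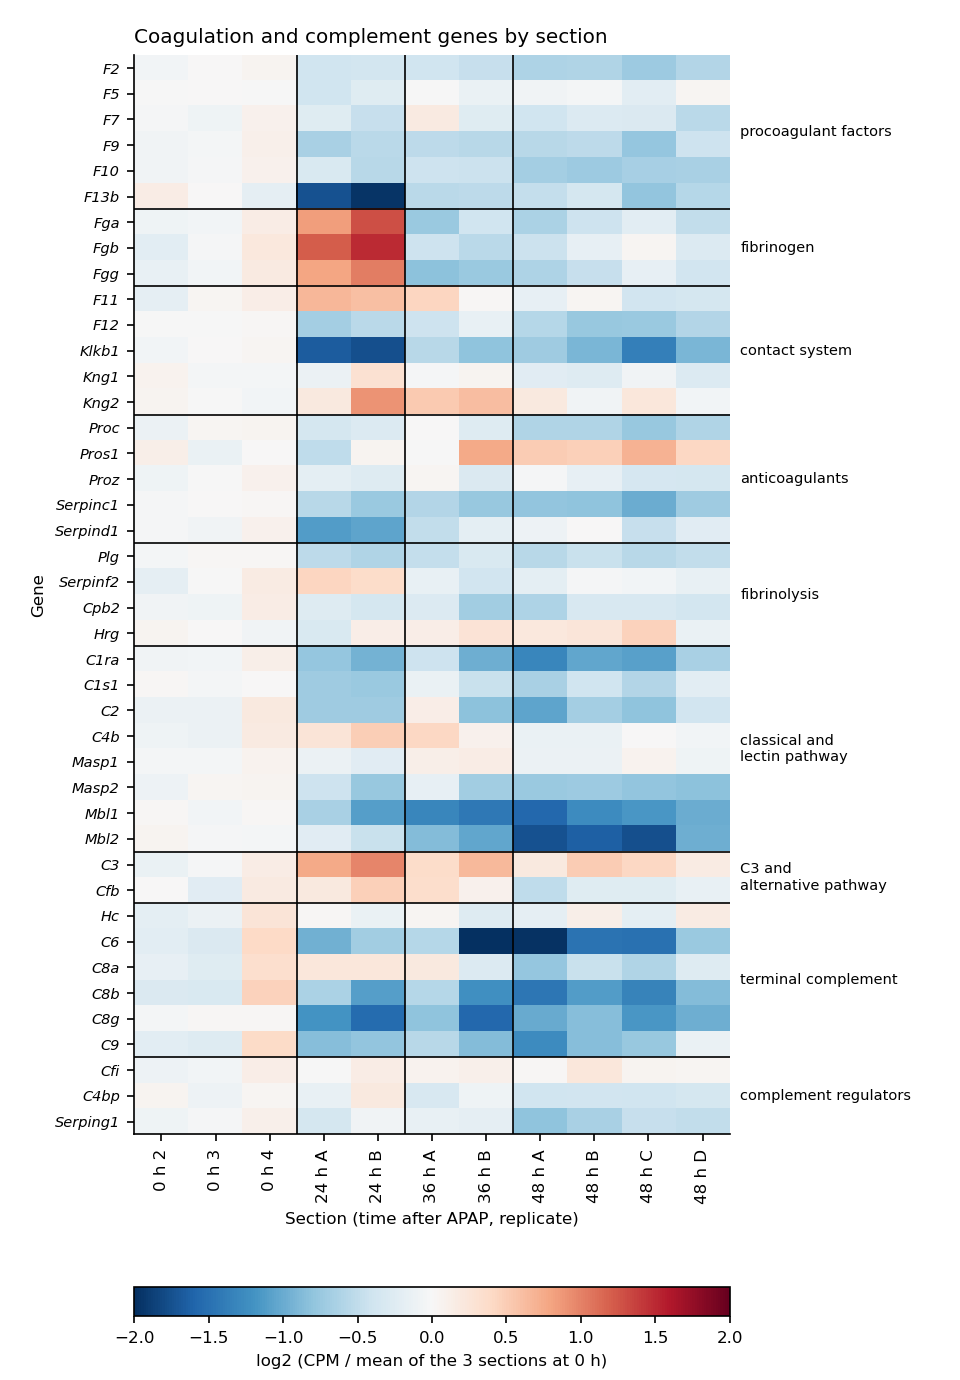
Heat map of the 42 genes (rows, grouped by role) in the 11 sections (columns), coloured by log2 of the TMM-scaled CPM over the mean of the 3 sections at 0 h, with the scale ending at 2 in either direction. The fibrinogen rows are red at 24 h and not at 36 or 48 h, F13b and Klkb1 are darkest blue at 24 h among the clotting genes, and Mbl1, Mbl2, C6 and C8b are dark blue at 48 h.

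Fibrinogen is a dimer of Aα, Bβ and γ chains, and the 3 genes sit in 1 cluster on chromosome 3 (GRCm38). Fgg lies at 83007724 to 83015049 and Fga at 83026076 to 83033627 on the plus strand. Fgb lies at 83040141 to 83049863 on the minus strand, 6513 bases from Fga. All 3 rose at 24 h, and none was called higher than at 0 h at 36 or 48 h. The 250 bases before the RefSeq transcript start of each (GRCm38.p6, chr3:83025903-83026152 on the plus strand for Fga, chr3:83049864-83050113 on the minus strand for Fgb and chr3:83007474-83007723 on the plus strand for Fgg) are printed because these genes moved together. The GENCODE model of Fga starts inside its window. Capitals mark matches, on either strand, to CTGGGA (the core of the IL-6 response element), TTCNNNGAA (STAT factors), GTTAAT (HNF1), CAAAGTCCA (HNF4) and TTGCNNAA (C/EBP factors), and none of the marked stretches overlap.
Fga: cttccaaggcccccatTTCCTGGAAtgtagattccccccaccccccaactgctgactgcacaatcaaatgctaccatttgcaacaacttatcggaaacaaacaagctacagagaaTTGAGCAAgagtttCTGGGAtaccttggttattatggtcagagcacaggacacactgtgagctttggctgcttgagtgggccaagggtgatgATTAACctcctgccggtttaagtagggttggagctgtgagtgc
Fgb: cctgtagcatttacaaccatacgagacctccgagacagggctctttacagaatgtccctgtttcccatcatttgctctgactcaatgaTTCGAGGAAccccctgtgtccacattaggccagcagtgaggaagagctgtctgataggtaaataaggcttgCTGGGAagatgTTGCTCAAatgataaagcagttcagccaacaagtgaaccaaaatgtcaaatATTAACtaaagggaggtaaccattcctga
Fgg: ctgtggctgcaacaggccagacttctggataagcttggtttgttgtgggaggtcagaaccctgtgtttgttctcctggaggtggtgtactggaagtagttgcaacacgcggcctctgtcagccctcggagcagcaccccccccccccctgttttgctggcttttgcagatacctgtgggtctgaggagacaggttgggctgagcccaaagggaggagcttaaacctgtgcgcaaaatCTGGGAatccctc
The CTGGGA core was present in all 3, and a STAT, an HNF1 and a C/EBP match in Fga and Fgb. Of 27025 RefSeq promoters cut to the same length, 26.8% held CTGGGA, 7.18% TTCNNNGAA, 6.52% GTTAAT, 0.381% CAAAGTCCA and 9.55% TTGCNNAA. Among the 33 members with a RefSeq promoter the counts were 14, 6, 9, 0 and 10, in the same order. A match describes letters in a window and not a bound site.

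Fgb, the most abundant member, stood at 5787, 6649.6 and 7756 CPM at 0 h, 15503 and 18846 after 24 h, 5072 and 4612 after 36 h, and 4985, 6036, 6879 and 5563 after 48 h. Both 24 h sections lay above all other sections, the 36 h sections lay below the 0 h sections, and the 48 h sections overlapped both. Fgb was 2.55-fold higher at 24 h than at 0 h (log2 fold change 1.35 ± 0.166, adjusted p = 0.000176). Its values at 36 h (-0.48 ± 0.171, adjusted p = 0.0578) and after 48 h (-0.20 ± 0.141, adjusted p = 0.275) did not pass. Fga stood at 3566, 3644 and 4204 CPM at 0 h, 6785 and 9301 after 24 h, 2286 and 2894 after 36 h, and 2461, 2851, 3272 and 2715 after 48 h. All 36 and 48 h sections lay below the 0 h sections. Fga rose 2.11-fold at 24 h (1.08 ± 0.173, adjusted p = 0.000766) and was lower than at 0 h at 36 h (-0.55 ± 0.178, adjusted p = 0.0385) and after 48 h (-0.43 ± 0.146, adjusted p = 0.0338). Fgg stood at 3968, 4246 and 5008 CPM at 0 h, 7635 and 8940.2 after 24 h, 2506 and 2638 after 36 h, and 2858, 3216, 3938 and 3364 after 48 h. Its 24 h sections lay above the 0 h sections, and its 36 and 48 h sections below them. It rose 1.88-fold at 24 h (0.91 ± 0.154, adjusted p = 0.00102) and was lower at 36 h (-0.78 ± 0.159, adjusted p = 0.00585) and after 48 h (-0.40 ± 0.130, adjusted p = 0.0285). The 24 h rise held under every scaling and with any section left out. The lower levels of Fga and Fgg at 48 h turned to 0.10 and 0.13 as a share of all UMIs and to 0.017 and 0.051 against the hepatocyte markers. Fga lost its call at 36 h without section 2, 3 or 4 of 0 h, A of 36 h, or B of 48 h (adjusted p up to 0.163). The call of Fga was also lost at 48 h without section 2, 3 or 4 of 0 h, or A, B or D of 48 h (adjusted p up to 0.122). Fgg lost its call at 48 h without section 3 or 4 of 0 h, or A, B or D of 48 h (adjusted p up to 0.128). From 24 to 36 h all 3 chains fell, by 1.63 (Fga), 1.83 (Fgb) and 1.69 (Fgg) on the log2 scale, under all 3 scalings. The chains did not move in a fixed ratio. Fgg UMIs per Fgb UMI were 0.638 to 0.686 at 0 h and 0.474 to 0.492 at 24 h, with no overlap, a ratio that was not tested.

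**Figure D2:**
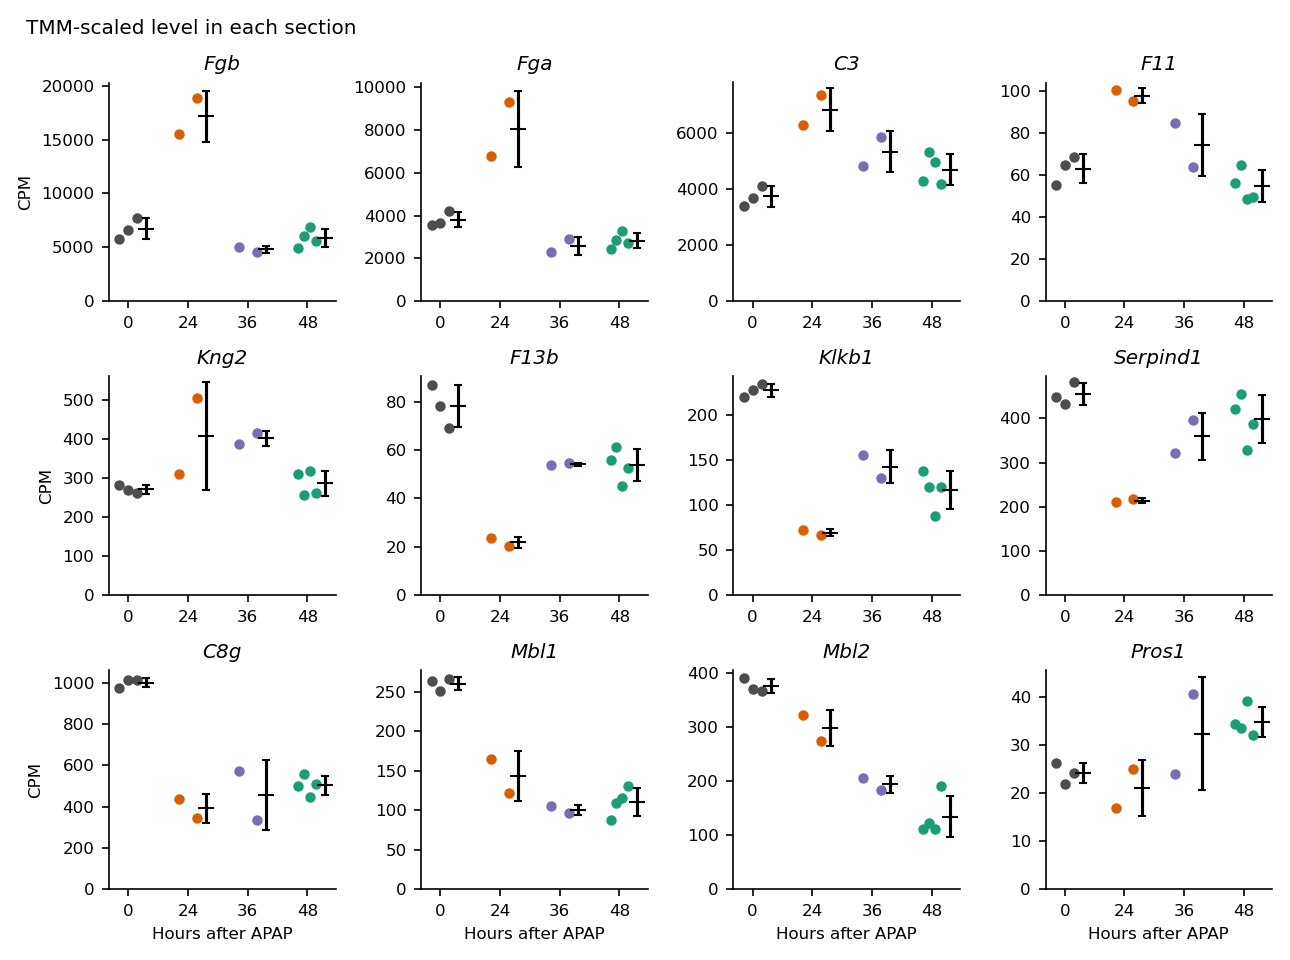
TMM-scaled CPM (vertical axes, from 0) of 12 members by hours after APAP, with 1 point per section and the mean and SD of each time point beside the points in black. Fgb, Fga, C3 and F11 are highest at 24 h, F13b, Klkb1 and Serpind1 are lowest at 24 h, and the mean of Mbl2 is lower at each later time.

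Of the 6 procoagulant factors, 5 fell at 24 h, 4 at 36 h and 5 at 48 h, and none rose with TMM. Over all genes 18.6%, 12.4% and 20.9% were lower. F2, prothrombin, which is cleaved to thrombin, stood at 1557, 1619 and 1672 CPM at 0 h, 1226 and 1251 after 24 h, 1225 and 1175 after 36 h, and 1058, 1069, 972 and 1079.7 after 48 h. All 8 injured sections lay below the 0 h sections. Its log2 fold change was -0.38 ± 0.103, adjusted p = 0.0122 at 24 h. It was -0.43 ± 0.103, adjusted p = 0.0117 at 36 h and -0.63 ± 0.0845, adjusted p = 0.000251 at 48 h. F13b, the carrier subunit of the factor that crosslinks fibrin, had the largest fall of any member at 24 h. Its level was 87.0, 78.4 and 69.3 CPM at 0 h, 23.5 and 20.2 after 24 h, 53.7 and 54.5 after 36 h, and 56.1, 61.4, 45.3 and 52.7 after 48 h. The 24 h sections lay below all others. F13b was lower than at 0 h by 1.84 ± 0.153 on the log2 scale (adjusted p = 3.24e-05). It rose by 1.31 from 24 to 36 h (adjusted p = 0.00227) but stayed under the 0 h level at 36 h (-0.53 ± 0.144, adjusted p = 0.0199) and after 48 h (-0.54 ± 0.118, adjusted p = 0.00409).

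F9, the intrinsic-pathway protease whose loss causes haemophilia B, fell by 0.59, 0.54 and 0.56 on the log2 scale at 24, 36 and 48 h from 112 ± 7.10 CPM (SD, n = 3) at 0 h (adjusted p up to 0.00814). F10, the protease that cleaves prothrombin, fell by 0.42, 0.42 and 0.68 from 455 ± 26.6 CPM (adjusted p up to 0.0177). F7, which starts the extrinsic pathway with tissue factor, fell at 48 h (-0.37 ± 0.119, adjusted p = 0.0266), and its log2 fold changes of -0.35 at 24 h and -0.018 at 36 h did not pass. F5, the cofactor of F10, fell at 24 h (-0.32 ± 0.110, adjusted p = 0.0362), had -0.064 at 36 h and -0.066 at 48 h, neither of which passed, and did not pass from 24 to 36 h either (adjusted p = 0.156). Of these calls, that of F13b at 24 h alone held under all 3 scalings. As a share of all UMIs F5 turned to 0.00351 at 24 h, F2 to 0.00934 and F10 to 0.0191 at 36 h, and F7 to 0.16 at 48 h. Against the hepatocyte markers F2, F5 and F10 turned to 0.0754, 0.13 and 0.0455 at 24 h. F2 lost its call at 24 h without section A or B of 24 h (adjusted p up to 0.0724). F5 lost its call at 24 h without section 2, 3 or 4 of 0 h, A or B of 24 h, or B of 48 h (adjusted p up to 0.228). F5 was called higher as a share of all UMIs at 36 and 48 h (0.38 and 0.46, adjusted p up to 0.0158) and against the hepatocyte markers at 48 h (0.37, adjusted p = 0.0425). F7 lost its call at 48 h without section 2 or 4 of 0 h, or A or D of 48 h (adjusted p up to 0.0913). F7 was called higher as a share of all UMIs at 36 h (0.43, adjusted p = 0.0393). F10 lost its call at 24 h without section B of 24 h (adjusted p = 0.119). The call of F10 was also lost at 36 h without section B of 36 h (adjusted p = 0.0569). F13b lost its call at 36 h without section 2 of 0 h, or A or B of 36 h (adjusted p up to 0.0633).

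The contact system held members that moved in opposite directions. F11 and Klkb1 are neighbouring paralogues on chromosome 8, at 45241174 to 45262031 and 45266689 to 45294859, both on the minus strand and 4657 bases apart. F11 encodes the zymogen that activates F9, and Klkb1 encodes plasma prekallikrein, which releases bradykinin from kininogen. F11 rose at 24 h, from 62.9 ± 6.86 CPM (SD, n = 3) to 97.7 ± 3.53 CPM (n = 2; log2 fold change 0.63 ± 0.159, adjusted p = 0.00874). Klkb1 stood at 219.6, 228 and 234 CPM at 0 h, 71.9 and 66.9 after 24 h, 155 and 129.8 after 36 h, and 138, 120.0, 88.3 and 119.9 after 48 h. Every injured section lay below the 0 h sections. Klkb1 fell by 1.71 ± 0.176 at 24 h (adjusted p = 7.41e-05), rose by 1.04 from 24 to 36 h (adjusted p = 0.00789). It remained lower than at 0 h at 36 h (-0.67 ± 0.168, adjusted p = 0.0145) and after 48 h (-0.96 ± 0.137, adjusted p = 0.000357). F11 UMIs per Klkb1 UMI were 0.252, 0.284 and 0.294 at 0 h, 1.39 and 1.42 after 24 h, 0.545 and 0.493 after 36 h, and 0.407, 0.539, 0.549 and 0.412 after 48 h, and no scaling affects this ratio. The 24 h sections stood apart from all others. Their upstream windows (RefSeq, GRCm38.p6, chr8:45262032-45262281 for F11 and chr8:45294836-45295085 for Klkb1, both minus strand, the same motifs in capitals) are printed because these neighbours differed, a choice made after their values were seen.
F11: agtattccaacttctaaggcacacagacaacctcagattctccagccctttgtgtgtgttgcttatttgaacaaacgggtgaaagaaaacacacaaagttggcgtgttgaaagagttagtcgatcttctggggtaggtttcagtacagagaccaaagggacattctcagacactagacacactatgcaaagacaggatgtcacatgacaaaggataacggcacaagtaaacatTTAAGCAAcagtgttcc
Klkb1: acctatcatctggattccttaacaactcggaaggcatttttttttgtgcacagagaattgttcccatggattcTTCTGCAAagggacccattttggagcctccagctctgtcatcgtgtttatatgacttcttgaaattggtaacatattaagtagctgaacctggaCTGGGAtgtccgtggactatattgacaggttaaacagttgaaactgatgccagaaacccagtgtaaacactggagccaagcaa
The GENCODE model of Klkb1 starts inside its window. F11 held a C/EBP match alone, and Klkb1 held a C/EBP and a CTGGGA match.

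F12, the zymogen that starts contact activation, fell at 24 h (-0.61 ± 0.120, adjusted p = 0.00257) and after 48 h (-0.66 ± 0.0982, adjusted p = 0.000441), and its 36 h value of -0.27 did not pass. The kininogens, precursors of bradykinin, differed. Kng1 stood at 2195, 2047 and 2048 CPM at 0 h, 1930.3 and 2581 after 24 h, 2072 and 2183 after 36 h, and 1798, 1759.8, 1988 and 1732 after 48 h, with overlapping groups. It had no call (log2 fold changes 0.11, 0.021 and -0.20). Kng2 rose at 24 h (0.59 ± 0.182, adjusted p = 0.0238) and was still higher at 36 h (0.57 ± 0.182, adjusted p = 0.039), in each case with every scaling, and had 0.078 at 48 h. The 0 h sections held 0.128 to 0.132 Kng2 UMIs per Kng1 UMI and the injured sections 0.146 to 0.196, without overlap. Since the genes are near copies, the split of reads between them is uncertain. F11 lost its call at 24 h without section A of 24 h (adjusted p = 0.0546). F11 was called higher as a share of all UMIs at 36 h (0.68, adjusted p = 0.00642) and against the hepatocyte markers at 36 h (0.60, adjusted p = 0.0318). Klkb1 lost its call at 36 h without section B of 36 h (adjusted p = 0.0843). Kng1 was called higher as a share of all UMIs at 24, 36 and 48 h (0.43, 0.46 and 0.32, adjusted p up to 0.0251) and against the hepatocyte markers at 24 h (0.56, adjusted p = 0.0187). Kng2 lost its call at 24 h without section 2, 3 or 4 of 0 h, or B of 24 h (adjusted p up to 0.408). The call of Kng2 was also lost at 36 h without section 2, 3 or 4 of 0 h, or A or B of 36 h (adjusted p up to 0.151). Kng2 at 24 h had a log2 value of 0.90 without section A of 24 h and 0.19 without section B of 24 h. Kng2 was called higher as a share of all UMIs at 48 h (0.61, adjusted p = 0.0053) and against the hepatocyte markers at 48 h (0.52, adjusted p = 0.0254).

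**Figure D3:**
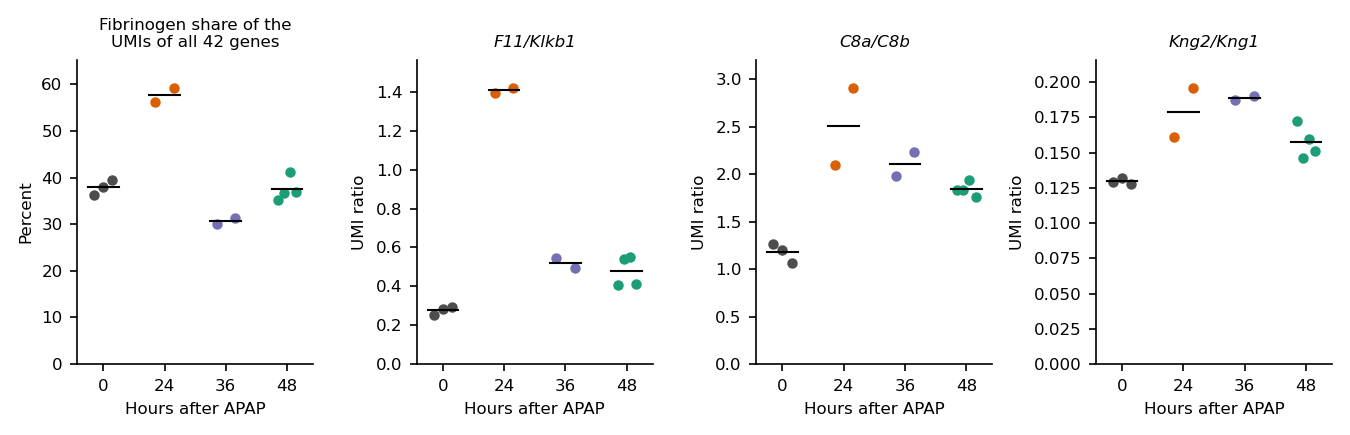
Measures that no library scaling affects, by hours after APAP, with 1 point per section and a bar at the mean: the fibrinogen share of the UMIs of all 42 genes (percent) and the UMI ratios F11/Klkb1, C8a/C8b and Kng2/Kng1, all axes from 0. The first 2 panels peak at 24 h (56.2 to 59.3% and 1.39 to 1.42), and C8a/C8b and Kng2/Kng1 are above their 0 h range in every injured section.

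Among the 5 anticoagulants, Serpinc1, antithrombin, the main inhibitor of thrombin, stood at 2144, 2190.4 and 2225 CPM at 0 h, 1486 and 1303 after 24 h, 1456 and 1297 after 36 h, and 1262, 1249, 1097 and 1339.6 after 48 h. All 8 injured sections lay below the 0 h sections. Serpinc1 fell at 24 h (-0.65 ± 0.123, adjusted p = 0.00201), after 36 h (-0.67 ± 0.123, adjusted p = 0.00361) and after 48 h (-0.82 ± 0.101, adjusted p = 0.000149), the last under all 3 scalings. Serpind1, heparin cofactor II, another thrombin inhibitor, stood at 449, 433 and 481 CPM at 0 h, 209.8 and 218 after 24 h, 322 and 397 after 36 h, and 421, 456, 329 and 386 after 48 h. Its 24 h sections lay below all others. Serpind1 fell by 1.09 ± 0.153 on the log2 scale (adjusted p = 0.000389) and rose by 0.75 from 24 to 36 h (adjusted p = 0.0161). Its values of -0.34 and -0.19 at 36 and 48 h did not pass. Fgb UMIs per Serpinc1 UMI, a ratio free of scaling, were 2.70 to 3.49 at 0 h, 10.4 and 14.5 at 24 h, 3.48 and 3.56 at 36 h and 3.95 to 6.27 at 48 h.

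Proc, protein C, the zymogen that once activated by thrombin cleaves F5 and F8, fell at 48 h (-0.64 ± 0.0975, adjusted p = 0.000506). It was the only member called from 36 to 48 h (-0.52 ± 0.109, adjusted p = 0.0342, beside 1.43% of all genes called lower). Pros1, its cofactor protein S, was the least abundant member, at 24.1 ± 2.13 CPM at 0 h (SD, n = 3) and 34.7 ± 3.14 CPM at 48 h (n = 4). It was the only member called higher at 48 h (0.53 ± 0.182, adjusted p = 0.0369). Proz, the cofactor of the protein Z-dependent protease inhibitor, had log2 fold changes of -0.23, -0.12 and -0.21 and no call. Serpind1 was called higher as a share of all UMIs at 48 h (0.34, adjusted p = 0.0257). Proc was called higher as a share of all UMIs at 36 h (0.32, adjusted p = 0.0491). Pros1 lost its call at 48 h without section 2, 3 or 4 of 0 h, or A, B or C of 48 h (adjusted p up to 0.129). Pros1 was called higher as a share of all UMIs at 36 h (0.85, adjusted p = 0.0056) and against the hepatocyte markers at 36 h (0.73, adjusted p = 0.0148). Proz was called higher as a share of all UMIs at 48 h (0.32, adjusted p = 0.0378). Proc lost its call from 36 to 48 h without section 2, 3 or 4 of 0 h, A of 36 h, or B, C or D of 48 h (adjusted p up to 0.129). Serpind1 lost its call from 24 to 36 h without section A or B of 24 h (adjusted p up to 0.0912).

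In fibrinolysis, Plg, plasminogen, the zymogen of the protease that dissolves fibrin, stood at 1276, 1331 and 1339.9 CPM at 0 h, 911 and 868 after 24 h, 944 and 1069 after 36 h, and 891, 963, 893 and 931 after 48 h. All injured sections were below the 0 h sections. Plg had a log2 fold change of -0.56 ± 0.106, adjusted p = 0.00188 at 24 h, -0.39 ± 0.105, adjusted p = 0.0205 at 36 h and -0.52 ± 0.0868, adjusted p = 0.000885 at 48 h. The last 2 turned to 0.0492 and 0.0105 as a share of all UMIs. Serpinf2, α2-antiplasmin, the inhibitor of plasmin, moved the other way at 24 h, from 998 ± 120.1 CPM (SD, n = 3) to 1315 ± 47.1 CPM (n = 2; 0.40 ± 0.129, adjusted p = 0.0296, under all 3 scalings). It fell from 24 to 36 h (-0.66 ± 0.143, adjusted p = 0.0163). Cpb2, a carboxypeptidase that slows fibrinolysis, fell at 36 h (-0.47 ± 0.151, adjusted p = 0.0395) and after 48 h (-0.41 ± 0.124, adjusted p = 0.022). Hrg, a heparin- and plasminogen-binding glycoprotein, had -0.064, 0.20 and 0.21 and no call. Its 24 h value turned to 0.26 as a share of all UMIs and 0.38 against the hepatocyte markers. Plg lost its call at 36 h without section 3 of 0 h, or A of 36 h (adjusted p up to 0.0764). Serpinf2 lost its call at 24 h without section 2 or 3 of 0 h, or A or B of 24 h (adjusted p up to 0.151). Serpinf2 was called higher as a share of all UMIs at 48 h (0.42, adjusted p = 0.0082). Cpb2 lost its call at 36 h without section 2, 3 or 4 of 0 h, A or B of 24 h, B of 36 h, or B of 48 h (adjusted p up to 0.248). The call of Cpb2 was also lost at 48 h without section 4 of 0 h, or A of 48 h (adjusted p up to 0.0974). Cpb2 at 36 h had a log2 value of -0.28 without section B of 36 h. Hrg was called higher as a share of all UMIs at 36 and 48 h (0.64 and 0.74, adjusted p up to 0.0109) and against the hepatocyte markers at 48 h (0.66, adjusted p = 0.00702). Serpinf2 lost its call from 24 to 36 h without section A or B of 24 h, or B of 36 h (adjusted p up to 0.0839).

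Of the 8 classical and lectin pathway genes, 5 fell at 24 h, 3 at 36 h and 6 at 48 h, and none rose with TMM. Over all genes 18.6%, 12.4% and 20.9% were lower. The steepest falls of the group at 36 and 48 h were those of the mannose-binding lectins, which bind microbial sugars and start the lectin pathway. Mbl1 stood at 264, 251 and 266 CPM at 0 h, 166 and 121 after 24 h, 105 and 96.3 after 36 h, and 87.5, 109, 116 and 131 after 48 h. Every injured section lay below the 0 h sections. Mbl1 had a log2 fold change of -0.86 ± 0.176, adjusted p = 0.00304 at 24 h, -1.37 ± 0.180, adjusted p = 0.0008 at 36 h and -1.23 ± 0.143, adjusted p = 0.000114 at 48 h. Mbl2 stood at 389.9, 370.0 and 365 CPM at 0 h, 321 and 274 after 24 h, 205 and 183 after 36 h, and 112, 121, 111 and 190.1 after 48 h. Its group means were lower at each later time, and its 24 h value of -0.33 did not pass. It fell by 0.95 at 36 h (adjusted p = 0.00972) and 1.49 at 48 h (adjusted p = 0.00013), the largest 48 h fall among the members. The steps from 24 to 36 h (-0.62 ± 0.234, adjusted p = 0.0935) and from 36 to 48 h (-0.54 ± 0.199, adjusted p = 0.162) did not pass by themselves. Mbl1 UMIs per Mbl2 UMI were 0.677 to 0.728 at 0 h, 0.443 to 0.528 at 24 and 36 h and 0.687 to 1.05 at 48 h, below the 0 h range at 24 and 36 h and overlapping or above it at 48 h.

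Masp2, the lectin-pathway protease that cleaves C4 and C2, fell at 24 h (-0.58 ± 0.159, adjusted p = 0.0138) and after 48 h (-0.77 ± 0.130, adjusted p = 0.000956), while Masp1, which activates it, had -0.17, 0.13 and -0.059 and no call. C1ra and C1s1, the proteases of the C1 complex, fell together at 24 h (-0.85 and -0.72) and after 48 h (-1.0 and -0.46), and C1ra also at 36 h (-0.67, adjusted p = 0.0326). C1ra UMIs per C1s1 UMI declined from 0.812 to 0.940 at 0 h to 0.553 to 0.645 at 48 h, without overlap. Their near copies C1rb and C1s2 had 32 and 3 UMIs over all sections, so the split of reads between copies is uncertain. C2, the protease subunit that joins C4, fell at 24 h (-0.71 ± 0.261, adjusted p = 0.0483) and after 48 h (-0.71 ± 0.212, adjusted p = 0.02). C4b, which encodes complement C4 and whose near copy C4a was not analysed here, was the most abundant of this group, at 1093, 1071 and 1313 CPM at 0 h, 1382 and 1623 after 24 h, 1552 and 1228 after 36 h, and 1057, 1052, 1162 and 1122 after 48 h. Its groups overlapped and no call was made (0.37, adjusted p = 0.0543 at 24 h), although DESeq2, the portal-rich spots alone and the fit without hepatocyte-low spots called it higher at 24 h. At 48 h the falls of Mbl1, Mbl2 and C1ra held under all 3 scalings, and that of C1s1 turned to 0.0711 as a share of all UMIs. C1ra lost its call at 24 h without section B of 24 h (adjusted p = 0.0636). The call of C1ra was also lost at 36 h without section 2, 3 or 4 of 0 h, or B of 36 h (adjusted p up to 0.215). C1ra at 36 h had a log2 value of -0.42 without section B of 36 h. C2 lost its call at 24 h without section 2, 3 or 4 of 0 h, A or B of 24 h, or B or C of 48 h (adjusted p up to 0.166). The call of C2 was also lost at 48 h without section 4 of 0 h, or C of 48 h (adjusted p up to 0.0809). C4b was called higher as a share of all UMIs at 24, 36 and 48 h (0.70, 0.71 and 0.45, adjusted p up to 0.00816) and against the hepatocyte markers at 24 and 36 h (0.83 and 0.62, adjusted p up to 0.033). Masp1 was called higher as a share of all UMIs at 36 and 48 h (0.57 and 0.47, adjusted p up to 0.00175). Masp2 lost its call at 24 h without section B of 24 h (adjusted p = 0.134). Mbl2 lost its call at 36 h without section B of 36 h (adjusted p = 0.0633).

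C3, the central component on which all complement pathways converge, stood at 3413, 3682 and 4134 CPM at 0 h, 6302 and 7378 after 24 h, 4822 and 5858 after 36 h, and 4300.4, 5328, 4984 and 4172 after 48 h. With TMM every injured section lay above the 0 h sections. C3 rose 1.83-fold at 24 h (0.87 ± 0.151, adjusted p = 0.00121) and 1.43-fold at 36 h (0.51 ± 0.152, adjusted p = 0.0285), both under all 3 scalings. Its 48 h value of 0.33 ± 0.129, adjusted p = 0.0602 did not pass here, but was called higher by DESeq2, with only the 0 and 48 h sections in the fit, and without hepatocyte-low spots (0.38, adjusted p = 0.0371). Cfb, factor B, the protease subunit of the alternative pathway convertase, had 0.34, 0.23 and -0.28 and no call. The last turned to 0.25 as a share of all UMIs and 0.16 against the hepatocyte markers. Cfb lies 85 bases from C2 on chromosome 17. Cfb UMIs per C2 UMI were 4.12 to 4.88 at 0 h and 8.39 to 10.2 at 24 h. C3 lost its call at 36 h without section 2 or 3 of 0 h, or B of 36 h (adjusted p up to 0.165). C3 was called higher as a share of all UMIs at 48 h (0.86, adjusted p = 0.000187) and against the hepatocyte markers at 48 h (0.76, adjusted p = 0.00078). Cfb was called higher as a share of all UMIs at 24 and 36 h (0.67 and 0.67, adjusted p up to 0.00559) and against the hepatocyte markers at 24 and 36 h (0.80 and 0.59, adjusted p up to 0.0445).

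The terminal complement genes encode the membrane attack complex. They fell in 3 of 6 cases at 24 h, 2 at 36 h and 5 at 48 h, and none rose with TMM. Over all genes 18.6%, 12.4% and 20.9% were lower. C8 is a heterotrimer whose chains are encoded by C8a, C8b and C8g, and the 3 genes did not move in step. C8g, a lipocalin, stood at 974, 1015 and 1015 CPM at 0 h, 439 and 343 after 24 h, 575 and 336 after 36 h, and 498, 556, 447 and 511 after 48 h. All injured sections lay below the 0 h sections. C8g fell at 24 h (-1.36 ± 0.210, adjusted p = 0.000646), after 36 h (-1.14 ± 0.208, adjusted p = 0.00349) and after 48 h (-0.99 ± 0.167, adjusted p = 0.000884), at each time under all 3 scalings. C8b stood at 323, 322 and 542 CPM at 0 h, 255 and 185 after 24 h, 266 and 170.1 after 36 h, and 146, 183, 156 and 218 after 48 h, again with every injured section below 0 h. It fell at 24 h (-0.85 ± 0.288, adjusted p = 0.0364), after 36 h (-0.86 ± 0.288, adjusted p = 0.0456) and after 48 h (-1.17 ± 0.234, adjusted p = 0.0025, under all 3 scalings). C8a, 11130 bases from C8b on chromosome 4, had 0.23 at 24 h and -0.020 at 36 h, neither of which passed. It fell at 48 h (-0.51 ± 0.174, adjusted p = 0.0345), which turned to 0.0199 as a share of all UMIs. C8a UMIs per C8b UMI were 1.27, 1.20 and 1.07 at 0 h, 2.10 and 2.91 after 24 h, 1.98 and 2.23 after 36 h, and 1.83, 1.84, 1.94 and 1.76 after 48 h. They were higher in all 8 injured sections than in any 0 h section.

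C6, which binds C5b to start the complex, stood at 129, 122 and 196 CPM at 0 h, 76.7 and 91.6 after 24 h, 100.4 and 31.3 after 36 h, and 38.0, 53.6, 53.1 and 89.4 after 48 h. All injured sections lay below the 0 h sections, but the spread between sections of 1 time was wide. C6 fell at 48 h (-1.35 ± 0.382, adjusted p = 0.0168) while -0.82 at 24 h and -1.18 at 36 h did not pass. C9, which forms the pore, fell at 24 h (-0.82 ± 0.300, adjusted p = 0.0491) and after 48 h (-0.69 ± 0.243, adjusted p = 0.0407). Hc, complement C5, had -0.054, -0.10 and -0.016 and no call. Replicate 4 held the highest 0 h level of 5 of these 6 genes, 36 h A exceeded 36 h B in all 6, and 48 h D held the highest 48 h level of 5. Hc was called higher as a share of all UMIs at 48 h (0.51, adjusted p = 0.0112). C6 lost its call at 48 h without section 4 of 0 h (adjusted p = 0.0687). C8a lost its call at 48 h without section 4 of 0 h, or A, B or C of 48 h (adjusted p up to 0.179). C8a at 48 h had a log2 value of -0.32 without section 4 of 0 h. C8a was called higher as a share of all UMIs at 24 h (0.56, adjusted p = 0.0435) and against the hepatocyte markers at 24 h (0.69, adjusted p = 0.0328). C8b lost its call at 24 h without section 4 of 0 h, A or B of 24 h, or B of 48 h (adjusted p up to 0.225). The call of C8b was also lost at 36 h without section 2, 3 or 4 of 0 h, A or B of 24 h, B of 36 h, or A, B or C of 48 h (adjusted p up to 0.264). C8b at 36 h had a log2 value of -0.57 without section B of 36 h. C9 lost its call at 24 h without section 2 or 4 of 0 h, A or B of 24 h, A or B of 36 h, or B or C of 48 h (adjusted p up to 0.181). The call of C9 was also lost at 48 h without section 2, 3 or 4 of 0 h, A or B of 24 h, or A, B or C of 48 h (adjusted p up to 0.187).

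Of the complement regulators, Cfi, factor I, the protease that inactivates C3b and C4b, stood at 518, 535 and 608 CPM at 0 h, 553 and 613 after 24 h, 580.0 and 591 after 36 h, and 560.0, 650.0, 577 and 567 after 48 h. Its groups overlapped and its log2 fold changes were 0.075, 0.082 and 0.089, with no call. C4bp, the C4b-binding protein that serves as cofactor of Cfi, fell at 48 h (-0.38 ± 0.107, adjusted p = 0.0144), which turned to 0.15 as a share of all UMIs. Serping1, the C1 inhibitor, which also blocks kallikrein and F12, fell at 48 h (-0.60 ± 0.112, adjusted p = 0.00171). Cfi was called higher as a share of all UMIs at 24, 36 and 48 h (0.40, 0.52 and 0.62, adjusted p up to 0.0132) and against the hepatocyte markers at 24 and 48 h (0.53 and 0.52, adjusted p up to 0.0141). C4bp lost its call at 48 h without section 2 of 0 h (adjusted p = 0.0549). C4bp was called higher as a share of all UMIs at 24 h (0.35, adjusted p = 0.0275) and against the hepatocyte markers at 24 h (0.48, adjusted p = 0.021).

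Between 24 and 36 h, 3 members rose (F13b, Klkb1, Serpind1), beside 7.04% of all genes, and 4 fell (Fga, Fgb, Fgg, Serpinf2), beside 8.58%. All 7 calls held under the 3 scalings, though the split of called members became 6 higher and 4 lower as a share of all UMIs. That scaling moved the median log2 change of all genes from 0.024 to 0.13 and that of the members from 0.0040 to 0.12. Each call pointed back toward the 0 h level, and 5 of them held with any section left out. These times have 2 sections each, and with only these 4 sections in the fit edgeR called no member, while 8 had an unadjusted p under 0.05 (lowest adjusted p = 0.133). From 36 to 48 h 1 member passed (Proc, -0.52, adjusted p = 0.0342). That call was lost under both other scalings (adjusted p = 0.0673 as a share of all UMIs and 0.211 against the hepatocyte markers) and in 7 of the 11 fits without 1 section (adjusted p up to 0.129). The 24 h values of these genes enter both this comparison and that with 0 h.

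Other genes of these pathways, outside the 42, were counted in the same fit, where calls over all genes came to 23.1% (higher) and 18.6% (lower) at 24 h, 16.8% and 12.4% at 36 h, and 23.3% and 20.9% at 48 h. Of 17 tested clotting partners and controls, 7 rose and 4 fell at 24 h, 4 and 2 at 36 h, and 4 and 3 at 48 h. Of 9 plasmin-system genes, 4 rose and 1 fell at 24 h, and 5 and 6 rose at 36 and 48 h with none lower. Complement genes of other cells, receptors and regulators (22 tested) split 6 higher to 6 lower at 24 h, 6 to 4 at 36 h and 8 to 5 at 48 h. The 3 vitamin K cycle genes, which serve the carboxylation of F2, F7, F9, F10, Proc, Pros1 and Proz, gave 1, 1 and 2 lower and none higher. All lists were chosen with earlier results known.

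Among these genes, 7 of those with the largest log2 changes from 0 h at any time are described here, and all 7 rose. Others moved by over 2 at 24 h in either direction. Colec11, of the complement list, fell from 58.2 to 9.90 CPM (-2.55, adjusted p = 2.87e-05). Procr (3.16), Itgam (2.65), Itgax (2.54), Thbd (2.44), Cd93 (2.27) and Serpina5 (2.14) rose (adjusted p up to 0.00849). Since all of the 7 but Anxa2 had few UMIs at 0 h, their fitted folds depend on the small count added to each library. Plat, tissue plasminogen activator, was 0.312 ± 0.194 CPM at 0 h (SD, n = 3) and 11.3 ± 3.95 CPM at 48 h (SD, n = 4; log2 fold change 5.24, adjusted p = 0.000251). Its 24 h value of 1.37 did not pass. Plaur, the urokinase receptor, rose at 24 h (4.93, adjusted p = 0.000114). Anxa2, a plasminogen-binding annexin, also rose (2.49, adjusted p = 0.00109), as did Thbs1, thrombospondin 1 (5.70, adjusted p = 4.34e-05). F13a1, which encodes the catalytic subunit that F13b carries and is a macrophage gene, was at or under 0.129 CPM in each 0 h section and 2.0 to 9.51 CPM in the injured sections (5.52, adjusted p = 0.000339 at 24 h), while F13b fell. C5ar1, the receptor of C5a, the fragment cut from the Hc protein, rose at 24 h (2.92, adjusted p = 0.00153) and after 48 h (3.74, adjusted p = 0.000227). Serpinb2, PAI-2, had no UMI at 0 h and at most 0.893 CPM in any section. Markers of several cell types also rose. The sum for mononuclear phagocytes was 409 to 434 CPM at 0 h, 553 to 595 CPM at 24 h and 722 to 1327 CPM at 48 h. Of its 4 genes 1, 1 and 3 were called higher at 24, 36 and 48 h. From 0 to 24 h the neutrophil sum went from 1.98 to 7.86 CPM to 38.4 to 136 CPM. The platelet sum went from 8.78 to 11.7 CPM to 27.0 to 36.8 CPM, and the endothelial sum from 247 to 283 CPM to 210 to 228 CPM. The part of each cell type was not tested.

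Zonation of the members was then read within the 0 h sections, where spots were ranked by a score of 23 central and 12 portal genes, none of them a member. The upper tertile (pericentral) was compared with the lower (periportal) across the 3 sections. In this uninjured liver 28 members were higher in periportal spots, beside 12.3% of all 12294 genes tested, and 4 in pericentral spots, beside 11.4%. Most differences were small, with a median of -0.17 beside 0.0028 for all genes and a range from -0.56 to 0.41 on the log2 scale. C9 was the only one past 0.5. It stood at 203, 190.4 and 315 CPM in the pericentral and 302, 295 and 435 CPM in the periportal spots of replicates 2, 3 and 4 (log2 -0.56 ± 0.0297, adjusted p = 7.66e-13). C9 fell from 294, 289.5 and 421 CPM (here a plain share of UMIs) in the most periportal decile of spots to 176, 161 and 259 in the most pericentral. C2 (-0.45), Hc (-0.40), C8a (-0.38) and Cfi (-0.34) followed. C6 was 1 of 4 pericentral members, at 124, 117 and 178 CPM in the pericentral and 90.0, 85.2 and 144 CPM in the periportal spots of replicates 2, 3 and 4 (0.41 ± 0.0343, adjusted p = 2.35e-09). The others were Mbl1 (0.30 ± 0.0278), C4bp (0.23 ± 0.0253) and F5 (0.21 ± 0.0302, with adjusted p up to 1.2e-05 for these 3). Thus the terminal complement genes C6 and C9 lay at opposite ends. In each of these 5 genes every section showed the same direction.

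The sum of the 5 hepatocyte markers was itself lower in pericentral spots, by 0.44 to 0.45 on the log2 scale, and Alb gives most of that sum. As a share of all UMIs the split of called members was 8 pericentral and 23 periportal, beside 19.2% and 8.99% of all genes. Scaled to the hepatocyte sum, 39 members were higher in pericentral spots and 1 (C9) in periportal spots, beside 78% and 2.55%, so that only C6, Mbl1, C4bp, F5 and C9 kept both call and direction under all 3 scalings. Mbl2 (0.012 ± 0.0258), Klkb1 (0.00475), C1ra (0.014), F13b (-0.013), F11 (0.027) and Hrg (-0.036) were among the 10 with no call, all of which were called pericentral against the hepatocyte sum.

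**Figure D4:**
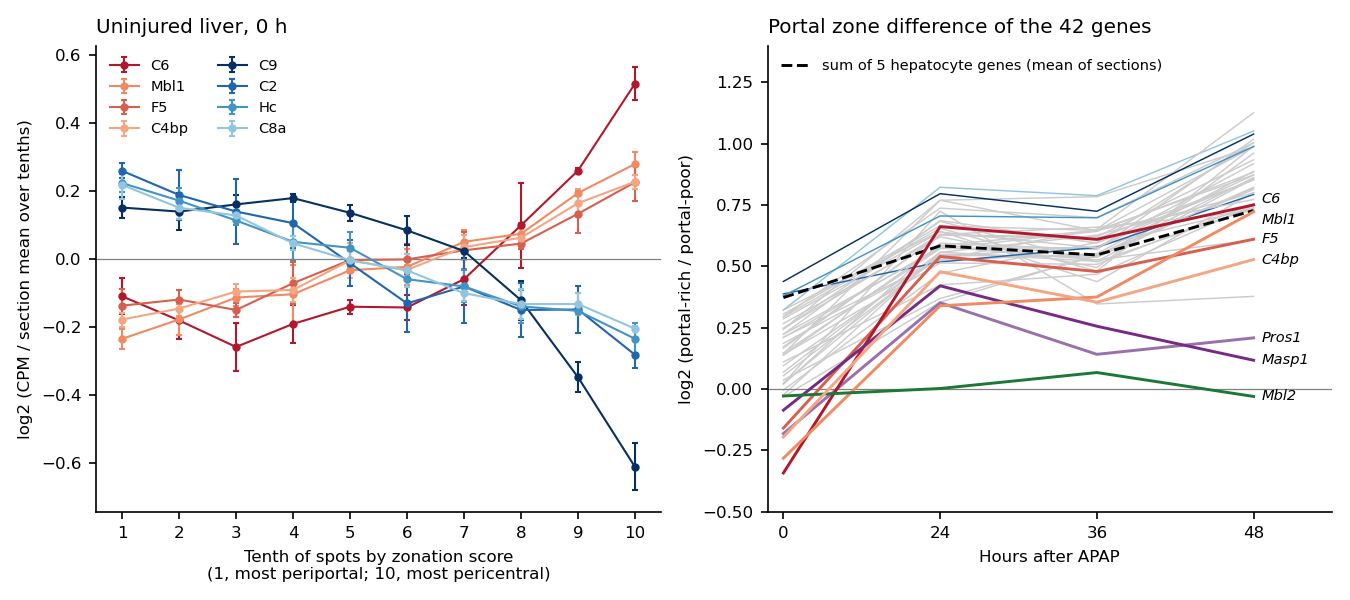
Left, profiles of 8 members over 10 equal bins of the 0 h spots ranked from most periportal to most pericentral, as log2 of CPM over the section's mean, with points and bars for the mean and SD of 3 sections. Right, log2 ratio of portal-rich to portal-poor spots by hours after APAP for all 42 genes (grey or coloured lines, edgeR estimates), with the 5-gene hepatocyte sum dashed. C6 ends highest and C9 lowest at the pericentral end, and the lines rise from 0 to 24 h, except that of Mbl2, which stays near 0.

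Central genes mark the hepatocytes that APAP kills, so for the time course spots were ranked by the 12 portal genes alone, leaving out hepatocyte-low spots. The upper (portal-rich) and lower (portal-poor) tertiles of each section were compared with the section as a block. At 0 h 21 members were higher in portal-rich spots, beside 5.29% of all 13864 genes tested, and 4 lower, beside 5.81%. At 24 h 41 of 42 were higher, at 36 h 40 and at 48 h 41, beside 13.9%, 13.8% and 29.6% of all genes, and none was lower at these times. On the log2 scale the median member difference was 0.15 before injury and 0.58, 0.57 and 0.84 after 24, 36 and 48 h, beside -0.030 to 0.011 for all genes over the 4 times. Tested as a change in the zone difference from 0 h, 40 members were higher at 24 h, 39 at 36 h and 41 at 48 h, beside 9.34%, 10.9% and 22.8% of all genes. The hepatocyte sum moved with this. It was higher in portal-rich spots by 0.37 to 0.38 at 0 h, 0.54 to 0.63 at 24 h and 0.57 to 0.87 at 48 h. The 5 markers differed in this. At 0, 24, 36 and 48 h Alb had 0.56, 0.61, 0.62 and 0.87 with TMM. Apoa1 had 0.16, 0.57, 0.38 and 0.25, and Trf 0.29, 0.63, 0.51 and 0.54. Hnf4a went from -0.015 to 0.32, 0.37 and 0.56, and Ttr from 0.032 to 0.41, 0.40 and 0.71. Portal-poor spots also bordered hepatocyte-low spots more often, in 4.90 to 52.3% of cases against 0.742 to 13.1% of portal-rich spots in the injured sections. The part of either in the zone differences was not tested. Scaled to the hepatocyte sum, the split of called members became 0 higher and 31 lower at 0 h, 5 and 4 at 24 h, 5 and 5 at 36 h and 21 and 7 at 48 h, beside 1.57% and 61.7%, 0.837% and 67.2%, 1% and 65.5%, and 3.68% and 84.7% of all genes. In the change from 0 h, 18, 22 and 33 members were then higher, beside 2.24%, 4.75% and 8.42%. With the score that also uses central genes, members called higher in that change numbered 27, 6 and 24, beside 6.5%, 3.64% and 11.7%.

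With TMM and the portal genes alone, the 4 pericentral members of the uninjured liver turned over. C6 had the largest change of any member at 24, 36 and 48 h. C6 was 112, 106 and 179 CPM in portal-rich and 146, 139 and 214 CPM in portal-poor spots at 0 h and 92.8 and 112 CPM in portal-rich and 58.0 and 71.5 CPM in portal-poor spots at 24 h. Its difference of -0.34 ± 0.0641 became 0.66 ± 0.0856 at 24 h. At 36 h it was 0.61 ± 0.0925 and at 48 h 0.75 ± 0.0598. F5 went from -0.16 ± 0.0491 at 0 h to 0.54 ± 0.0623, 0.48 ± 0.0616 and 0.61 ± 0.0421. Mbl1 went from -0.28 ± 0.0524 to 0.34 ± 0.0680, 0.37 ± 0.0705 and 0.72 ± 0.0471, and C4bp went from -0.20 ± 0.0501 to 0.48 ± 0.0618, 0.35 ± 0.0622 and 0.53 ± 0.0435. Each of these values passed. For all 4 genes the change from 0 h passed at 24, 36 and 48 h under all 3 scalings. With TMM it ran from 0.55 (C4bp at 36 h) to 1.09 (C6 at 48 h). Against the hepatocyte sum it was smaller, from 0.37 (C4bp at 48 h) to 0.79 (C6 at 24 h). In that scaling the 24 h differences of F5, Mbl1 and C4bp were instead -0.040, -0.24 and -0.10, and that of C6 0.081. Those of F5, Mbl1 and C4bp were also negative at 36 and 48 h. With the score that also uses central genes, F5, Mbl1 and C4bp did not pass at 36 h (0.14, 0.091 and 0.046, adjusted p from 0.237 to 0.766). Nor did Mbl1 at 24 h (0.10, adjusted p = 0.265) or C4bp at 48 h (0.091, adjusted p = 0.0636). C6 passed with that score at 24, 36 and 48 h (0.47, 0.28 and 0.22). F5 lost its call in the zone difference at 0 h without section 2, 3 or 4 of 0 h, A of 36 h, or A or C of 48 h (adjusted p up to 0.298). Mbl1 lost its call in the zone difference at 24 h without section B of 24 h (adjusted p = 0.103). Mbl1 in the zone difference at 24 h had a log2 value of 0.22 without section B of 24 h. C4bp lost its call in the zone difference at 0 h without section 2 or 3 of 0 h (adjusted p up to 0.121). The call of C4bp was also lost in the zone difference at 36 h without section B of 36 h (adjusted p = 0.0585). C4bp in the zone difference at 36 h had a log2 value of 0.23 without section B of 36 h.

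The largest portal-rich differences after injury were those of C8a (0.82 ± 0.0560 at 24 h and 0.79 ± 0.0564 at 36 h) and C8g (1.13 ± 0.0392 at 48 h). Those of C9 were next or close (0.80, 0.72 and 1.04), and the fibrinogen chains ranged from 0.44 to 0.99 over the 3 injured times. Mbl2 was the 1 member without a call at any time with TMM. It was 117, 119.7, 114 and 184 CPM in portal-rich and 111, 121, 119.9 and 197 CPM in portal-poor spots at 48 h. Its differences were -0.028 ± 0.0536 before injury and 0.00205, 0.067 ± 0.0687 and -0.030 ± 0.0481 after 24, 36 and 48 h. Other scalings called it lower in portal-rich spots after injury. Against the hepatocyte sum it was -0.40 at 0 h and -0.58, -0.47 and -0.76 at 24, 36 and 48 h (adjusted p up to 4.82e-06). As a share of all UMIs it was -0.24, -0.18 and -0.39 at the injured times (adjusted p up to 0.0244). Masp1 (0.42, 0.26 and 0.12) and Pros1 (0.35, 0.14 and 0.21) had the next smallest differences at 36 and 48 h, of which the 36 h value of Pros1 did not pass. At 48 h both turned over as a share of all UMIs, to -0.24 and -0.15. Masp1 lost its call in the zone difference at 36 h without section A of 36 h (adjusted p = 0.111). The call of Masp1 was also lost in the zone difference at 48 h without section A of 36 h, or A, B or C of 48 h (adjusted p up to 0.406). Masp1 in the zone difference at 48 h had a log2 value of 0.076 without section A of 48 h, 0.058 without section B of 48 h and 0.078 without section C of 48 h. Pros1 lost its call in the zone difference at 24 h without section A or B of 24 h (adjusted p up to 0.137).

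Time courses were also fitted within each tertile, an alternative added after the data were seen. In portal-rich spots 9 members rose and 9 fell at 24 h, 2 and 5 at 36 h, and 5 and 7 at 48 h, beside 16.9% and 14.2%, 6.76% and 6.11%, and 9.97% and 8.27% of all genes. In portal-poor spots the counts were 5 and 24, 0 and 25, and 0 and 35, beside 23.4% and 19.3%, 19.4% and 15.9%, and 27.6% and 26.2%. The 24 h fibrinogen rise was found in both, with Fgb at 1.53 in portal-rich (adjusted p = 0.000184) and 1.23 in portal-poor spots (adjusted p = 0.000128). The 24 h falls of F13b (-1.59 and -1.98), Klkb1 (-1.47 and -1.93), Serpind1 (-0.83 and -1.35) and C8g (-1.17 and -1.49) also passed in both. Mbl2 fell in both at 48 h (-1.45 and -1.45). F5 at 48 h was higher in portal-rich (0.34, adjusted p = 0.0313) and lower in portal-poor spots (-0.44, adjusted p = 0.00177). C3 at 48 h was 0.70 (adjusted p = 0.00786) and -0.029 (adjusted p = 0.853). The difference between the tertiles is tested by the change in the zone difference from 0 h, which at 48 h was 0.77 ± 0.0647 for F5 (adjusted p = 3.49e-11), 0.71 ± 0.0604 for C3 (adjusted p = 1.01e-10) and -0.00199 for Mbl2 (adjusted p = 0.991). For Mbl2 that change was called lower as a share of all UMIs (-0.32, adjusted p = 0.000218) and against the hepatocyte sum (-0.36, adjusted p = 0.000457).

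Last, spots were placed by their distance from hepatocyte-low spots, those whose score of the 5 hepatocyte markers was under the 1st percentile of the 0 h spots. They made up 0.541 to 8.67% of the injured sections' spots. Members were compared between these spots, the ring of spots touching them and spots at least 3 steps away. In hepatocyte-low spots, chosen for low hepatocyte RNA, 41 members were lower than far away at 24 h, 41 at 36 h and 42 at 48 h, beside 13.6%, 7.43% and 29.1% of all 13556 genes tested. Medians were -1.06, -1.05 and -1.70. Section 36 h B had 11 such spots, under the minimum of 20, so the 36 h comparison rests on 1 section and has no replicate check. In the ring, whose own spots were at or above that cut-off, 35 members were lower at 24 h, 1 (C8a) at 36 h and 41 at 48 h, beside 3.01%, 0.243% and 19.2%, with medians of -0.36, -0.34 and -0.61. The hepatocyte sum was lower in the ring by 0.43 to 0.46 at 24 h and 0.48 to 0.53 at 48 h. Scaled to it, 5 members were higher and 0 lower in the ring at 24 h, and 6 and 12 at 48 h, beside 57.2% and 0.221%, and 77.7% and 1.93% of all genes. In hepatocyte-low spots that scaling gave 12 higher and 2 lower at 24 h, 3 and 0 at 36 h, and 8 and 15 at 48 h, beside 74.6% and 0.221%, 39.4% and 0.236%, and 89.5% and 1.73%. As a share of all UMIs, 17 members were lower in the ring at 24 h, beside 0.922%. Without section 24 h B the 24 h ring count was 9.

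C8a had the largest difference of any member between hepatocyte-low and far spots at 24 h (-1.39 ± 0.0809) and after 48 h (-2.14 ± 0.0650), and C6 at 36 h (-1.47 ± 0.222). In section 48 h A it was 86.1, 218 and 358 CPM in hepatocyte-low, ring and far spots, and in 24 h A 300.5, 528 and 710.3 CPM. The ring difference of C8a was -0.52 ± 0.0730 at 24 h, -0.48 ± 0.106 at 36 h and -0.72 ± 0.0526 at 48 h. Fgb was 10281, 16263 and 19952 CPM in 24 h A and 1990.5, 4319 and 6667 CPM in 48 h A. Its level in the hepatocyte-low spots of 24 h A was above the whole-section mean of 6731 CPM at 0 h, although these levels come from separate TMM scalings. The ring differences of Fgb were -0.38 ± 0.0764 at 24 h and -0.60 ± 0.0542 at 48 h. Mbl2 was not called between ring and far spots with TMM (-0.071 ± 0.0787 at 24 h, adjusted p = 0.773, and -0.071 ± 0.0577 at 48 h, adjusted p = 0.362) but was lower in the hepatocyte-low spots (-0.61 ± 0.0877 and -1.08 ± 0.0729). Against the hepatocyte sum Mbl2 was called higher in the ring at 24 h (0.38, adjusted p = 0.000362) and 48 h (0.47, adjusted p = 5.91e-09), and as a share of all UMIs at 48 h (0.18, adjusted p = 0.00645). Its hepatocyte-low difference turned to 0.49 and 0.58 against that sum.

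Masp1 and Pros1 had the smallest differences between hepatocyte-low and far spots at 48 h. There Masp1 was -0.38 ± 0.0704 and Pros1 -0.49 ± 0.0967, where the median member was -1.70. As a share of all UMIs they turned to 0.17 and 0.0522. At 24 h Masp1 was lower on that scale too (-0.34, adjusted p = 0.0126). In 48 h A, Masp1 was 93.6, 107 and 121 CPM and Pros1 32.2, 43.1 and 42.4 CPM in hepatocyte-low, ring and far spots. Ring differences at 48 h were -0.17 ± 0.0585 and -0.18 ± 0.0716. Masp1 lost its call in the ring at 48 h without section A, B or D of 48 h (adjusted p up to 0.316). Masp1 in the ring at 48 h had a log2 value of -0.092 without section B of 48 h. Pros1 lost its call in the ring at 48 h without section A of 36 h, or A, B, C or D of 48 h (adjusted p up to 0.531). Pros1 in the ring at 48 h had a log2 value of -0.079 without section C of 48 h.

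**Figure D5:**
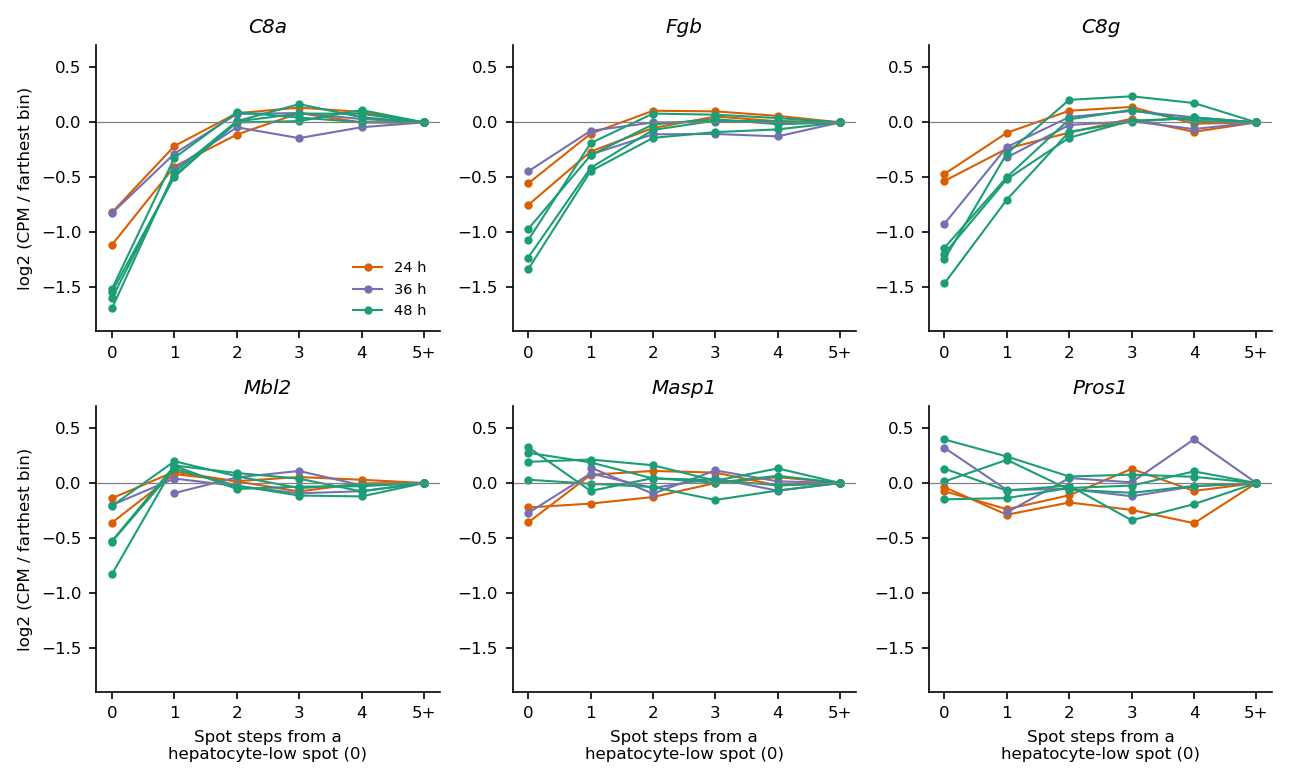
Levels of 6 members by distance from hepatocyte-low spots in the injured sections, as log2 of CPM over the value of the farthest bin (5 or more steps), as plain shares without TMM, with 1 line per section and bins under 20 spots left out. C8a, Fgb and C8g drop in the ring (1 step) and further in hepatocyte-low spots (0), Mbl2 drops in hepatocyte-low spots while 7 of its 8 ring values lie above 0, and in hepatocyte-low spots Masp1 lies below 0 at 24 and 36 h and above 0 at 48 h and Pros1 lies on both sides.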

How the data were processed

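Frozen mouse liver sections from uninjured mice (0 h) and from mice 24, 36 and 48 h after APAP were assayed with Visium. The values used are raw UMI counts per gene and spot, deposited by the authors for each section, and the submitters' processing notes name Space Ranger 1.0.0, Seurat 4.1.1 and mm10. Visium counts the 3′ ends of transcripts, so 1 molecule counts once whatever its length, and levels were compared between genes without scaling by length. Tissue-covered spots were kept from 800 genes upward when mitochondrial UMIs did not exceed 20%, and their counts were summed per section, or per class of spots in a section. Spot barcodes are fixed array positions that sections share, and no doublet caller applies to spots. Groups are the labelled time points, and sections are the replicates.

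All 11 sections entered 1 edgeR fit (edgeR 4.0.16, R 4.3.3, filterByExpr, TMM, robust quasi-likelihood F test), with Benjamini-Hochberg adjustment over all genes and a threshold of 0.05. Its common biological coefficient of variation was 0.194. The standard error of a log2 fold change was taken as its size over the square root of F. Comparisons of spot classes used the section as a block. The scripts were tested on simulated data with known changes. The members, the pathway lists and the marker lists were chosen with earlier results of these data known, and the 23 central and 12 portal genes of the zone scores follow the study. Members were named with all section values when they changed by at least 1 on the log2 scale, belonged to fibrinogen or were the most abundant of their role. The values of 1 gene outside the 42 are not reported here. Gene positions are from GENCODE on GRCm38 and upstream windows from RefSeq on GRCm38.p6. Depth, 31292663 to 67045372 UMIs per section, left the least abundant member with at least 632 UMIs in each section. Alternatives were other scalings, DESeq2 1.42.0, no filter on low counts, other spot sets, other zone scores and sizes, a replicate block and each section left out. The images were not used, and the upstream window of Kng1 was not analysed here.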

Additional observations from a re-analysis of the deposited data

Results flagged for a closer look

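In the 48 h sections, where 4 samples allow a search for outlying values, 2 of the 42 genes had 1 section far from the other 3. Proc was lowest in section C, at 273 CPM, with a gap to the next section of 0.932 of the whole range, and Mbl2 was highest in section D, at 190.1 CPM, with a gap of 0.867. Both gaps pass Dixon's critical value, and chance alone flags about 1 in 20 such groups.

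By a test of the change itself, the portal-rich against portal-poor difference rose from 0 h in 40 members at 24 h, 39 at 36 h and 41 at 48 h. Over all genes these shares were 9.34%, 10.9% and 22.8%. Scaled to the hepatocyte sum the counts were 18, 22 and 33, beside 2.24%, 4.75% and 8.42%. With the score that also uses central genes they were 27, 6 and 24, beside 6.5%, 3.64% and 11.7%. For the 4 members that were pericentral at 0 h, the change on the log2 scale at 24, 36 and 48 h was 0.70, 0.64 and 0.77 for F5, 1.0, 0.95 and 1.09 for C6, 0.62, 0.66 and 1.0 for Mbl1 and 0.67, 0.55 and 0.72 for C4bp. The hepatocyte sum and the nearness to hepatocyte-low spots differed between the same spots, and their part was not tested.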

How the results depend on the processing

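The count of members called moved by over 1.5 times, lost its calls or changed side in the following cases, and the cause was not tested. Scaled to the hepatocyte markers, members called numbered 8 at 36 h against 0 h (of 17), 13 at 48 h against 0 h (of 27), 0 at 48 h against 36 h (of 1), 9 in the zone difference at 24 h (of 41), 10 in the zone difference at 36 h (of 40), 18 in its change from 0 h at 24 h (of 40), 22 in its change from 0 h at 36 h (of 39), 5 in the ring at 24 h (of 35), 0 in the ring at 36 h (of 1), 18 in the ring at 48 h (of 41), 14 in hepatocyte-low spots at 24 h (of 41), 3 in hepatocyte-low spots at 36 h (of 41) and 23 in hepatocyte-low spots at 48 h (of 42). With only the times compared in the fit, members called numbered 10 at 36 h against 0 h (of 17), 0 at 36 h against 24 h (of 7) and 0 at 48 h against 36 h (of 1). In portal-rich spots (chosen after seeing the data), members called numbered 7 at 36 h against 0 h (of 17), 12 at 48 h against 0 h (of 27) and 0 at 48 h against 36 h (of 1). With the section letter as a replicate block, members called numbered 4 at 36 h against 24 h (of 7) and 0 at 48 h against 36 h (of 1). With total-count scaling, members called numbered 0 at 48 h against 36 h (of 1), 24 in its change from 0 h at 24 h (of 40), 25 in its change from 0 h at 36 h (of 39), 17 in the ring at 24 h (of 35) and 0 in the ring at 36 h (of 1). With no filter on low counts, members called numbered 0 at 48 h against 36 h (of 1). In the injured sections with no replicate block (chosen after seeing the data), members called numbered 0 at 48 h against 36 h (of 1). With DESeq2, members called numbered 4 at 48 h against 36 h (of 1). In portal-poor spots (also chosen after seeing the data), members called numbered 5 at 48 h against 36 h (of 1). With the zonation score, members called numbered 6 in its change from 0 h at 36 h (of 39) and 25 in its change from 0 h at 48 h (of 41). Where edgeR called no member from 36 to 48 h, 2 to 13 had an unadjusted p under 0.05, and in the ring at 36 h 2 to 35. With each section left out in turn, counts ran from 15 to 28 at 24 h against 0 h, 8 to 18 at 36 h against 0 h, 0 to 5 at 48 h against 36 h, 9 to 36 in the ring at 24 h and 0 to 9 in the ring at 36 h. Of the called members, 14 of 25 at 24 h, 6 of 17 at 36 h and 17 of 27 at 48 h kept their call without any single section. The sign changes listed next cover every called member between times. Between zones the list is limited to F5, C6, Mbl1, C4bp, C9, Hc, C8a, C2, Mbl2, Masp1 and Pros1. By distance it is limited to Masp1, Pros1 and Mbl2. Outside that list, total-count scaling turned Fga in the change of the zone difference from 0 h at 36 h. With total-count scaling, 19 of the listed log2 values turned sign, to F5 0.0035 at 24 h against 0 h, F2 0.0093, F10 0.019 and Plg 0.049 at 36 h against 0 h, F7 0.16, Fga 0.10, Fgg 0.13, Plg 0.010, Cpb2 0.12, C8a 0.020, C1s1 0.071 and C4bp 0.15 at 48 h against 0 h, and Pros1 -0.15 and Masp1 -0.24 in the zone difference at 48 h. There, too, values turned to Masp1 -0.12 in its change from 0 h at 48 h, Pros1 0.076 and Masp1 0.087 in the ring at 48 h, and Pros1 0.052 and Masp1 0.17 in hepatocyte-low spots at 48 h. Over all called members, scaling to the hepatocyte markers turned the sign of 26 of 32 between zones at 0 h. In the zone difference it turned 18 of 25, 21 of 41, 14 of 40 and 8 of 41 at 0, 24, 36 and 48 h. In the change from 0 h it turned 0 of 40, 0 of 39 and 2 of 41. In the ring it turned 30 of 35 at 24 h and 11 of 41 at 48 h. In hepatocyte-low spots it turned 28 of 41, 22 of 41 and 17 of 42 at 24, 36 and 48 h. With that scaling 36 of the listed log2 values turned sign, to F2 0.075, F5 0.13 and F10 0.046 at 24 h against 0 h, F7 0.065, Fga 0.017, Fgg 0.051, Cpb2 0.036 and C4bp 0.058 at 48 h against 0 h, C8a 0.073 and Hc 0.047 between zones at 0 h, and C8a -0.049 in the zone difference at 0 h. There, too, values turned to F5 -0.040, Pros1 -0.23, C2 -0.061, Masp1 -0.16, Mbl1 -0.24 and C4bp -0.10 in the zone difference at 24 h, F5 -0.058, Masp1 -0.28, Mbl1 -0.16 and C4bp -0.18 in the zone difference at 36 h, F5 -0.12, Pros1 -0.52, Masp1 -0.61, Mbl1 -0.0023 and C4bp -0.20 in the zone difference at 48 h, and Masp1 -0.15 in its change from 0 h at 48 h. There, too, values turned to Pros1 0.36 and Masp1 0.37 in the ring at 48 h, Masp1 0.38 and Mbl2 0.49 in hepatocyte-low spots at 24 h, Masp1 0.41 and Mbl2 0.51 in hepatocyte-low spots at 36 h, and Pros1 1.19, Masp1 1.29 and Mbl2 0.58 in hepatocyte-low spots at 48 h. In portal-rich spots alone, an alternative chosen after seeing the data, 2 log2 values turned sign, to F5 0.020 at 24 h against 0 h, and C4bp 0.0088 at 48 h against 0 h. With the zonation score, 5 of the listed log2 values turned sign, to Masp1 -0.051 in the zone difference at 48 h, C9 -0.14 and Hc -0.080 in its change from 0 h at 36 h, and C2 -0.028 and C9 -0.063 in its change from 0 h at 48 h. Called members outside that list also turned in the 36 h change, namely Fga (-0.076), Fgg (-0.078) and Cfi (-0.047). DESeq2 and the use of all spots under the tissue mask left the direction and call of all 77 called time changes as they were. DESeq2 also called members that edgeR did not. Against 0 h these were Proc and C4b at 24 h, F12, Fgb, Serpind1, C6 and Masp2 at 36 h and C3 at 48 h. Between injured times they were F12 and C1s1 at 36 h against 24 h, and F12, Serping1 and Cfb at 48 h against 36 h. The section letters pair nothing that the labels state, and correlations of same-letter deviations did not share a sign (from -0.293 to 0.391). With that replicate block, 4 of the 8 calls between injured times remained, and without it, in the same sections, 7.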
